A study of Mus musculus with 8 samples.

Results

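Kinesins are motor proteins that carry cargo along microtubules or shape the mitotic spindle, and 40 genes of this family were measured in whole ovaries of mice given pioglitazone or vehicle. A gene was taken when its symbol in the platform annotation was Kif followed by a number and an optional letter, or was Kifc1, Kifc2, Kifc3, Kifap3 or Klc1 to Klc4. The rule used names and no measured value, and it found 40 of 18069 named genes, on 49 of 36227 probes. These were 11 mitotic kinesins and 29 transport and other kinesins, the latter including the adaptor subunit Kifap3 and the light chains Klc1, Klc3 and Klc4. Kif15, Kif24, Kif16b, Kif25, Kif28, Kifc1 and Klc2 had no probe under those names and are not described.

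The animals were females of the Lethal Yellow (LY) strain, C57BL/6J Ay/a by the labels, in which the yellow allele of the agouti gene brings adult obesity and insulin resistance. Both groups carried this allele, and untreated black mice were not analysed here. Pioglitazone, a thiazolidinedione that activates the nuclear receptor PPARγ, was given by daily gavage for 60 days, from 120 to 180 days of age, at 0.1 mg per day by the labels, while the methods text states a lower dose. The 4 vehicle mice received the solvent dimethyl sulfoxide on the same schedule. There was 1 array for each of 4 mice per group, so p-values rest on the spread between mice, and the small number of arrays limits the precision.

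Kinesins bind microtubules through a motor domain that hydrolyses ATP, and most of them move towards the plus end. Kinesin-1 and kinesin-3 carry organelles and vesicles, kinesin-2 also drives transport into cilia, and the mitotic kinesins separate the spindle poles, position chromosomes and complete cytokinesis. In the ovary, granulosa cells of growing follicles divide rapidly, and their mitotic genes are commonly switched on late in the cell cycle through promoters that hold a CHR element (cell cycle genes homology region) and CCAAT boxes bound by the factor NF-Y.

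Promoter sequence was available for 32 of the 40 genes, as the 250 bases before and 50 bases after the RefSeq start on GRCm38.p6. The CHR element was searched as TTTGAA or TTCGAA and the CCAAT box as CCAAT, each on both strands, and the motifs do not overlap in sequence. Stretches of 4 genes are shown: 2 mitotic genes that hold both motifs close to the start, and the 2 genes with the largest difference in their class among those that passed the unadjusted threshold. Capitals mark the matches, with TTCAAA and ATTGG being the reverse complements, and each sequence is written on the gene's own strand.
Kif11 (chr19:37376282-37376381, plus strand, bases -100 to -1): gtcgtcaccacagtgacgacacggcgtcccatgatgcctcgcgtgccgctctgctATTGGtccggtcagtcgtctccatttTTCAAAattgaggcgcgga
Kif22 (chr7:127042421-127042520, minus strand, bases -100 to -1): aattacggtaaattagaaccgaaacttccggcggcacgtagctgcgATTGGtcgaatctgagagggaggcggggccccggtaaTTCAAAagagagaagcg
Kif2c (chr4:117178813-117178912, minus strand, bases -140 to -41): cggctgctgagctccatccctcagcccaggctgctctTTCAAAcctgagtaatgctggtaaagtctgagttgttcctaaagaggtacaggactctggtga
Kif1b (chr4:149307774-149307873, minus strand, bases -140 to -41): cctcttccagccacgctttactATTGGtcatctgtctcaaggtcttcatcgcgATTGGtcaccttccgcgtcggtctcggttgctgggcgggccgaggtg

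The CHR element stood in 8 of 10 mitotic kinesin promoters and in 3 of 22 of the others, beside 21.7% of all 27025 promoters. The mitotic genes with it were Kif2c, Kif4, Kif11, Kif14, Kif18b, Kif20b, Kif22 and Kif23, and the others were Kif1a, Kif26b and Kif27. The CCAAT box stood in 7 of 10 mitotic promoters and in 9 of 22 others, beside 41.1% of all promoters. Both motifs together were found in 6 mitotic promoters and 2 others, beside 9.65% of all. In Kif11 the CHR match began at base -19 and the CCAAT match at -45, and in Kif22 the nearest pair began at -17 and -54. Kif2c held a CHR match at -103 and no CCAAT box, and Kif1b held CCAAT boxes at -118 and -87 and no CHR match. Kif7 and Kif9 held neither motif. The E2F motif, TTTCGCGC or TTTGGCGC, was found in Kif18a and in no other kinesin promoter, beside 0.929% of all promoters. No kinesin promoter held AGGTCANAGGTCA, the idealised direct repeat bound by PPARγ, which stood in 0.0481% of all promoters. These matches describe letters in one window and not binding.

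**Figure D1:**
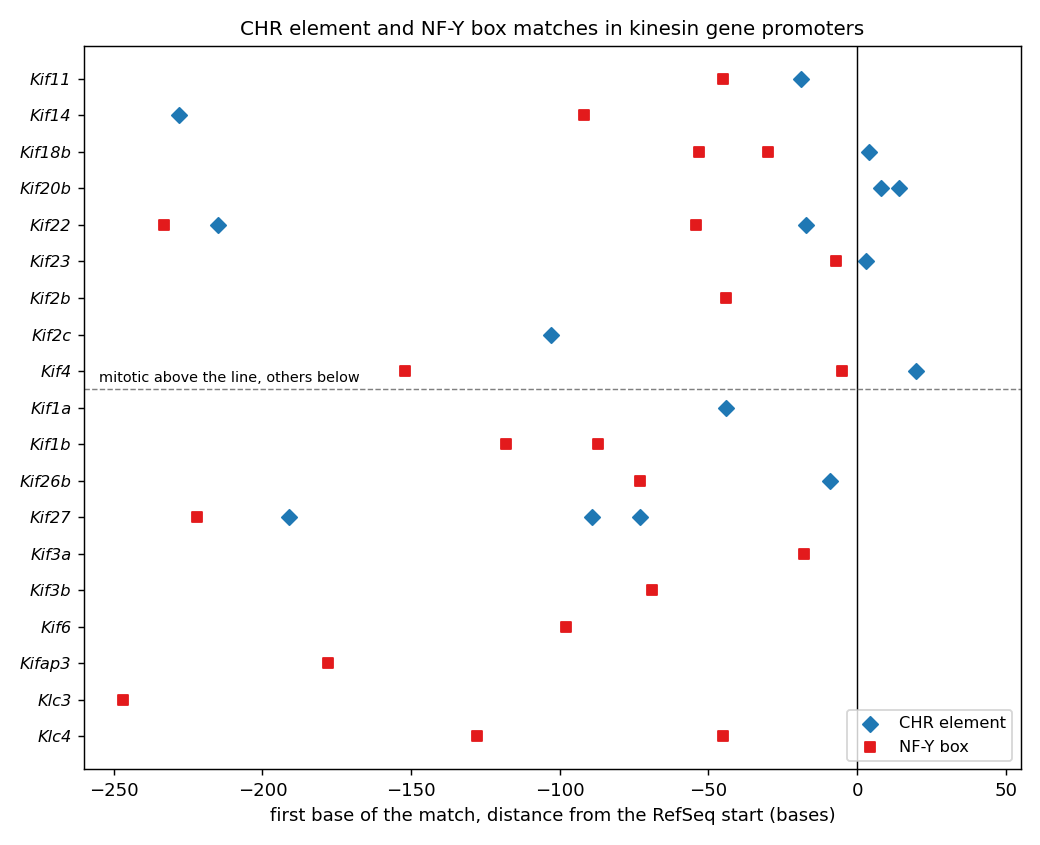
Position of the first base of each CHR element and NF-Y box (CCAAT) match, in bases from the RefSeq start, for the kinesin genes that hold at least 1 match. Mitotic genes stand above the dashed line, and 8 of the 11 genes with a CHR match are mitotic.

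Intensities are given in relative units, in which the median probe of each array was set to 1, and 0.2 is the limit of sensitivity of the platform. On the arrays, 82.5% to 83.9% of probes lay at or above this limit. Of the 40 genes, 35 lay at or above it on all 8 arrays, Kif23 and Kif19a on some, and Kif2b, Kif5a and Kif17 on none. A gene was represented by its brightest probe and tested when its mean reached 0.2 in at least 1 group, which left 36 genes. Of these, Kif19a entered through the pioglitazone group alone, and a filter on the mean over all arrays left 35 genes. Not tested were Kif2b, Kif23, Kif5a and Kif17. The oocyte genes Gdf9 and Zp3, at group means of 5.83 and 39.5 in vehicle mice, and the granulosa cell factor Foxl2, at 8.74, were well above the limit, as in ovary.

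With pioglitazone, Kif1b, Kif2c, Kif7 and Kif9 passed an unadjusted p of 0.05 in limma, and each was higher than with vehicle. These were 4 of 36 tested kinesin genes (11.1%), beside 4.85% of 16065 named genes in either direction and 1.57% higher with pioglitazone. After Benjamini-Hochberg adjustment over all probes 0% of named genes passed, and the adjusted p in limma was 0.837 for each of the 4 kinesin genes, so none of them is called changed at that level. The groups did not overlap for Kif1b, Kif2c and Kif9, 3 of 36 genes (8.33%), all higher with pioglitazone, beside 4.18% of named genes in either direction and 1.14% higher. Leaving out 1 mouse lowered the count of 4 to 1 (without pioglitazone mouse 3 or 4), to 3 (without pioglitazone mouse 1) or to 2 (without any other mouse). These are shares of 2.78%, 8.33% and 5.56% of the 36 genes. The genes counted were not always among the 4 named above. The counts held Kif19a without vehicle mouse 1, Kif12 without vehicle mouse 3 and Kif21a without pioglitazone mouse 1, each higher with pioglitazone. The matching shares of named genes were 3.83% and 2.12% without pioglitazone mouse 3 and 4, 7.64% without pioglitazone mouse 1, and 3.21% to 6.61% without any other mouse, so the count of kinesin genes was below or close to that of all named genes in several of these fits. With the filter on the mean over all arrays the same 4 genes passed, 11.4% beside 4.73% of named genes. Over the tested kinesin genes 22 log2 fold changes were above 0 and 14 below, with a median of 0.06. Over all named genes 6967 were above 0 and 9098 below, with a median of -0.04. In whole ovary, fewer cells of a type and less RNA per cell cannot be told apart.

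**Figure D2:**
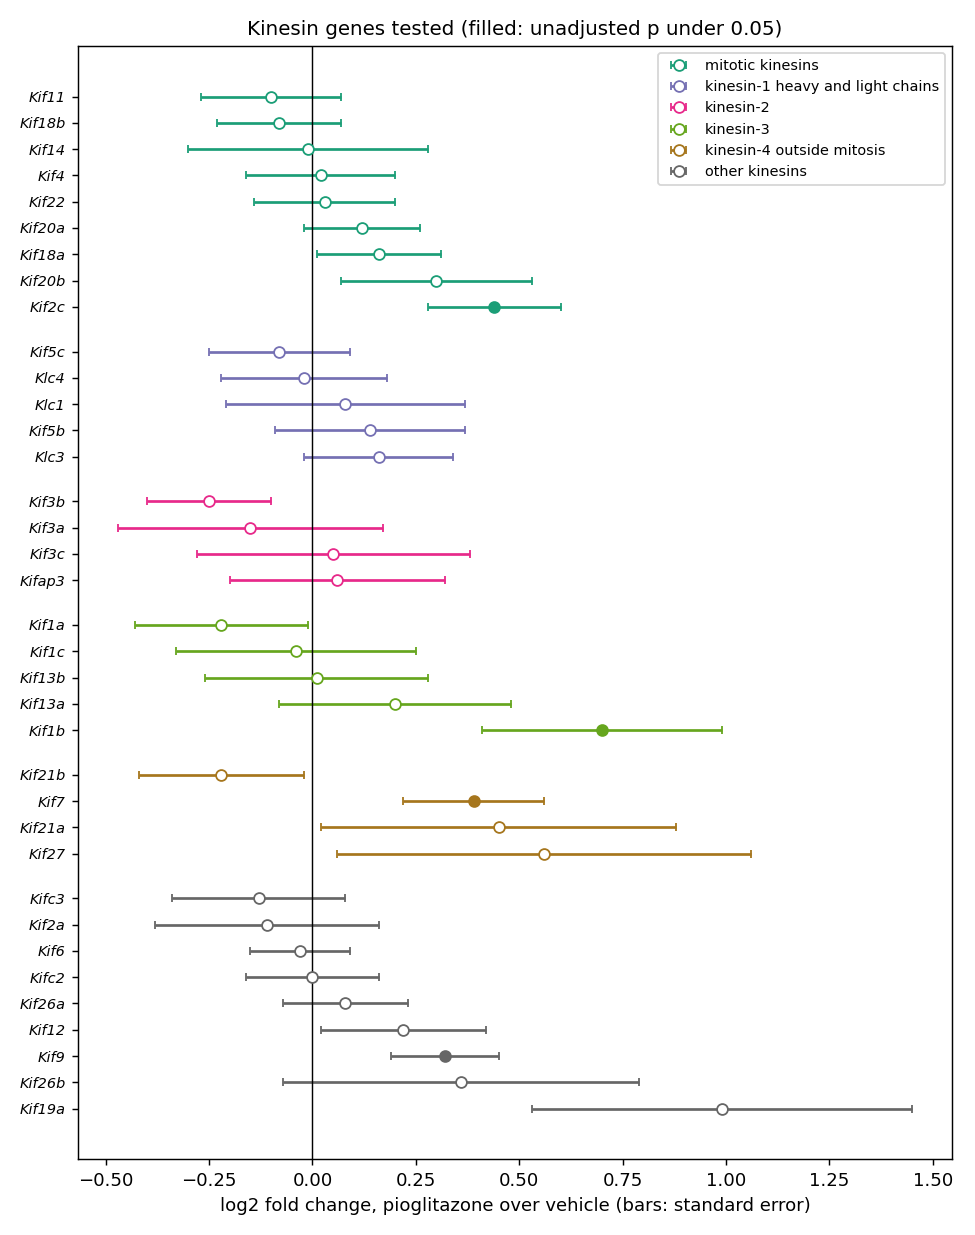
Log2 fold change of pioglitazone over vehicle (horizontal axis) for the 36 tested kinesin genes, grouped by family, with bars of 1 standard error from limma and 4 mice per group. Filled points passed an unadjusted p of 0.05, namely Kif2c at 0.44, Kif1b at 0.70, Kif7 at 0.39 and Kif9 at 0.32.

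Among the mitotic kinesins only Kif2c passed the unadjusted threshold, 1 of 9 tested (11.1%), beside 4.85% of named genes. The median log2 fold change of the 9 genes was 0.03, with 6 above 0 and 3 below. Kif2c encodes MCAK, which takes microtubules apart at kinetochores and helps correct faulty attachments. Its intensity was 1.41, 1.58, 1.21 and 1.69 in vehicle mice 1 to 4, and 2.38, 1.71, 1.94 and 1.97 in pioglitazone mice 1 to 4. Every pioglitazone mouse lay above every vehicle mouse, although pioglitazone mouse 2 was only just above vehicle mouse 4. The means were 1.47 ± 0.212 and 2.00 ± 0.281 (SD, n = 4 each). The log2 fold change was 0.44 (SE 0.16), with an unadjusted p of 0.0235 in limma and a 2-sided exact permutation p of 0.0286, the smallest that 4 mice against 4 allow. Without vehicle mouse 1, vehicle mouse 3 or pioglitazone mouse 1 the threshold was missed, with log2 fold changes of 0.43, 0.35 and 0.36. Pioglitazone mouse 1 stood apart in the median over 6 adipocyte markers, at a log2 deviation from each gene's mean of 2.13. The other mice lay between -1.15 and 0.78. This mouse was far the highest for Adipoq, Lep and Retn and the highest for Fabp4. Cidec was 11.3 in it and 11.1 in vehicle mouse 3, and Lipe was under the limit in it. The part of fat tissue in the kinesin values was not tested.

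The cytokinesis motors Kif20a and Kif20b and the chromosome alignment motor Kif18a had the next smallest p-values, and none passed. Kif20b was 0.511, 0.491, 0.284 and 0.437 in vehicle mice and 0.604, 0.436, 0.417 and 0.649 in pioglitazone mice, with overlap and a log2 fold change of 0.30 (SE 0.23, 2-sided exact permutation p = 0.286). Kif18a was 1.95, 2.34, 1.91 and 2.53 with vehicle and 2.29, 2.29, 2.69 and 2.41 with pioglitazone, a log2 fold change of 0.16 (SE 0.15, 2-sided exact permutation p = 0.257). In both genes the groups overlapped, with the lowest values in vehicle mice. Kif20a was 1.82, 2.06, 1.79 and 2.12 with vehicle and 1.99, 1.96, 2.07 and 2.47 with pioglitazone, and the log2 fold change was 0.12 (SE 0.14, 2-sided exact permutation p = 0.257). Here pioglitazone mouse 4 alone lay above all vehicle mice. Leaving out 1 mouse moved the log2 fold change of Kif20b to between 0.11 (without vehicle mouse 3) and 0.40, that of Kif18a to between 0.10 and 0.23, and that of Kif20a to between 0.05 (without pioglitazone mouse 4) and 0.16.

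Among the tested mitotic kinesins the lowest log2 fold change belonged to Kif11, or Eg5, the motor that pushes the spindle poles apart. It was 2.24, 2.71, 2.21 and 2.52 in vehicle mice and 1.76, 2.78, 2.41 and 2.20 in pioglitazone mice, with both the lowest and the highest value in the pioglitazone group. The log2 fold change was -0.10 (SE 0.17, 2-sided exact permutation p = 0.571), and it turned to 0.02 without pioglitazone mouse 1, while a second probe of the gene gave 0.12. Kif22 and Kif4, chromokinesins that bind chromosome arms, had means of 24.6 ± 1.18 and 3.63 ± 0.275 with vehicle (SD, n = 4 each) and log2 fold changes of 0.03 and 0.02. Kif18b, which trims astral microtubules, went from 7.16 to 6.79 (log2 fold change -0.08), and Kif14, a cytokinesis motor, from 0.32 to 0.314 (log2 fold change -0.01). The central spindle motor Kif23 averaged 0.176 and 0.196, under the limit in both groups. The depolymerase Kif2b was under the limit in every mouse, with means of 0.1 and 0.0453.

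Over the tested mitotic genes with a CHR match in the promoter, log2 fold changes ran from -0.10 (Kif11) to 0.44 (Kif2c). The spread between mice within a group, as an SD of log2 values, had a median of 0.22 over the 9 tested mitotic kinesins, 0.36 over the 27 tested transport and other kinesins and 0.30 over all named genes tested. The median log2 deviation from each gene's mean was taken over all 11 mitotic kinesins, with the dim, untested Kif2b and Kif23. It was -0.05, 0.02, -0.07 and -0.01 in vehicle mice and 0.03, 0.00, 0.03 and 0.20 in pioglitazone mice. Pioglitazone mouse 4 was the highest and the remaining mice lay close together. Without pioglitazone mouse 4 the median log2 fold change of the 9 tested mitotic kinesins was -0.07.

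**Figure D3:**
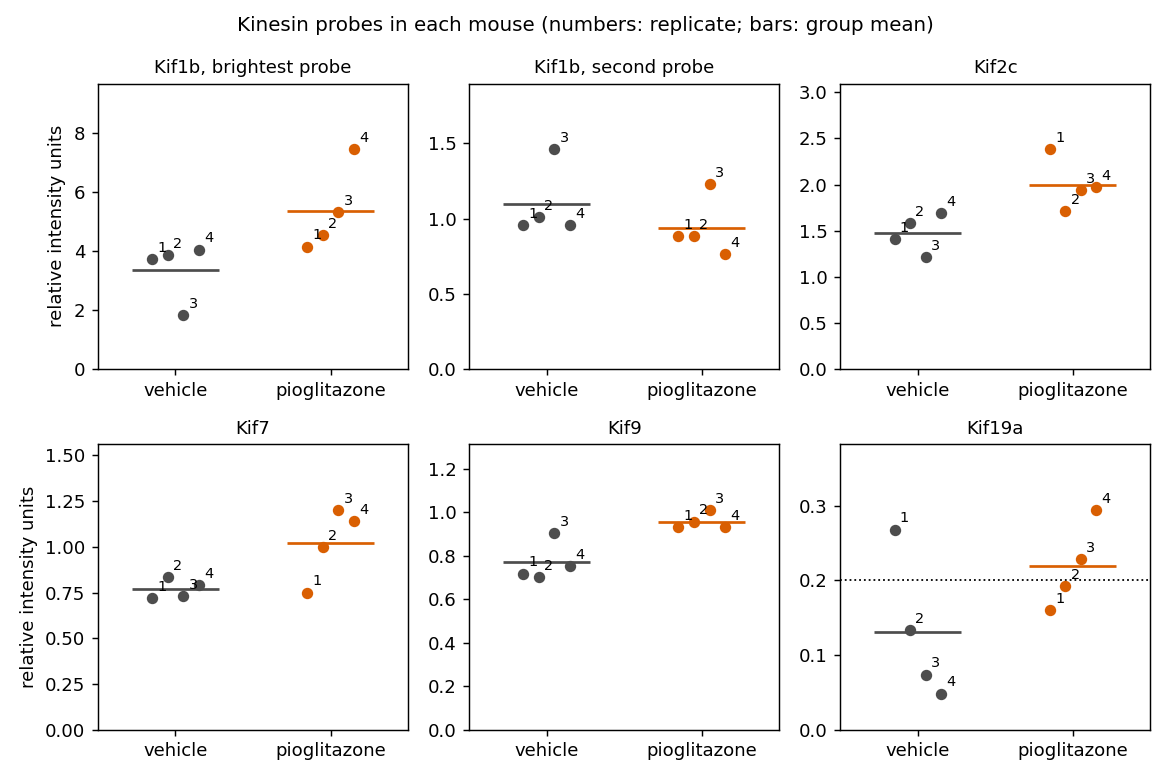
Relative intensity (vertical axis, in relative intensity units, with its own scale in each panel) in each vehicle and pioglitazone mouse, for both Kif1b probes, Kif2c, Kif7, Kif9 and Kif19a. Points carry the number of the mouse, bars are group means of 4 mice, and the dotted line marks the limit of 0.2. The groups do not overlap for the brightest Kif1b probe, Kif2c and Kif9.

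Among the transport kinesins Kif1b had the largest difference of those that passed, on 1 of its 2 probes. Kif1b is a kinesin-3 motor that carries mitochondria and synaptic vesicle precursors. Its brightest probe read 3.73, 3.86, 1.83 and 4.04 in vehicle mice and 4.14, 4.53, 5.32 and 7.43 in pioglitazone mice. The groups did not overlap, but vehicle mouse 4 and pioglitazone mouse 1 nearly touched, vehicle mouse 3 was far below its group and pioglitazone mouse 4 far above the others. The means were 3.36 ± 1.03 and 5.36 ± 1.47 (SD, n = 4 each). The log2 fold change was 0.70 (SE 0.29), with p = 0.0371 in limma and a 2-sided exact permutation p of 0.0286. It was 0.43 without vehicle mouse 3, 0.69 without pioglitazone mouse 3 and 0.53 without pioglitazone mouse 4, and did not pass the threshold in any of these 3 fits.

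The other Kif1b probe did not follow. It carries a different transcript in the platform annotation, but without probe sequences neither probe was placed on the transcripts here. It read 0.957, 1.01, 1.46 and 0.956 in vehicle mice and 0.882, 0.883, 1.23 and 0.766 in pioglitazone mice. Mouse 3 was the highest of both groups, and the groups overlapped, although the value was lower with pioglitazone in each of the 4 pairs of mice with the same number. The means were 1.10 ± 0.246 and 0.94 ± 0.201 (SD, n = 4 each), with a log2 fold change of -0.22 (SE 0.20, 2-sided exact permutation p = 0.343). Vehicle mouse 3 thus stood at opposite ends of its group on the 2 probes, and the mean of both probes gave a log2 fold change of 0.24, which did not pass in limma. Across the family, 7 genes had 2 tested probes and these had the same sign in 2 genes.

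The other kinesin-3 genes did not pass the threshold. Kif1a, which carries synaptic vesicle precursors, went from 1.60 ± 0.338 to 1.38 ± 0.315 (SD, n = 4 each), and its log2 fold change was -0.22. Kif1c and Kif13a had log2 fold changes of -0.04 and 0.20. Kif13b, which carries membrane cargo and binds the scaffold protein Dlg1, had a log2 fold change of 0.01 and a wide range within the groups. It was 18.0, 7.90, 9.19 and 11.7 in vehicle mice and 14.8, 9.52, 9.04 and 12.5 in pioglitazone mice. Mouse 1 was highest and mouse 4 next in both groups.

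Kif7 and Kif27 belong to the kinesin-4 group and are related in sequence. Kif7 acts at the tip of the primary cilium in Hedgehog signalling, and it was 0.720, 0.834, 0.731 and 0.791 in vehicle mice and 0.749, 1.00, 1.20 and 1.14 in pioglitazone mice. Pioglitazone mice 2, 3 and 4 lay above all vehicle mice and pioglitazone mouse 1 lay among them. The means were 0.769 ± 0.0533 and 1.02 ± 0.201 (SD, n = 4 each), the log2 fold change was 0.39 (SE 0.17, p = 0.0489 in limma), and the 2-sided exact permutation p was 0.0857. Leaving out any single mouse other than pioglitazone mouse 1 left Kif7 short of the threshold, with log2 fold changes of 0.31 to 0.43.

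Kif27 passed the threshold only when mice with the same number were compared, a pairing that the methods text does not describe. It read 2.17, 0.841, 0.565 and 1.71 in vehicle mice and 3.24, 1.19, 0.964 and 2.27 in pioglitazone mice. The order of the mice was the same in both groups (mouse 1, then 4, 2 and 3), a pattern chosen after the values were seen, and the value was higher with pioglitazone in 4 of 4 pairs. The means were 1.32 ± 0.745 and 1.91 ± 1.05 (SD, n = 4 each). The log2 fold change was 0.56 (SE 0.50, 2-sided exact permutation p = 0.371) without the pairing, and it was 0.22 without vehicle mouse 3, 0.26 without pioglitazone mouse 1 and 0.01 with array weights. With the replicate number as a block the SE was 0.14 and the unadjusted threshold was passed, at an adjusted p = 0.575 in limma. With the block, 5 of 36 kinesin genes passed (13.9%), namely Kif27 beside the 4 above, against 8.02% of named genes. A second Kif27 probe near the limit of sensitivity gave a log2 fold change of -0.02 (2-sided exact permutation p = 0.857). The remaining kinesin-4 genes, Kif21a and Kif21b, slow motors known from neurons, had log2 fold changes of 0.45 and -0.22 and did not pass with all mice. Kif21a passed, higher with pioglitazone, only without pioglitazone mouse 1.

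Kif9 and Kif19a are motors of motile cilia, Kif9 also of sperm tails, and Kif19a takes microtubules apart at ciliary tips. Kif9 was 0.718, 0.703, 0.905 and 0.754 in vehicle mice and 0.931, 0.958, 1.01 and 0.932 in pioglitazone mice. The pioglitazone mice lay close together above all vehicle mice, with vehicle mouse 3 nearest to them. The means were 0.770 ± 0.0926 and 0.958 ± 0.0374 (SD, n = 4 each), and the log2 fold change was 0.32 (SE 0.13, p = 0.0396 in limma, 2-sided exact permutation p = 0.0286). Leaving out any single mouse other than vehicle mouse 3 left it short of the threshold, with log2 fold changes of 0.28 to 0.34. Kif19a was dim, and it entered the tests only through its pioglitazone mean of 0.219, since its vehicle mean of 0.131 was under the limit of 0.2. Its log2 fold change of 0.99 (SE 0.46) is therefore given as a description with no test. It was 0.268, 0.133, 0.0739 and 0.0484 in vehicle mice and 0.160, 0.192, 0.229 and 0.294 in pioglitazone mice. Only vehicle mouse 1 and pioglitazone mice 3 and 4 reached the limit of 0.2, and the log2 fold change was 0.08 when all values below the limit were set to it. Without vehicle mouse 1, the vehicle mouse above the limit, it was 1.43.

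Genes that mark the adjoining oviduct were examined beside these ciliary motors. Most are genes of its multiciliated cells, while Ovgp1 (log2 fold change 0.20) is a gene of its secretory cells. Of 8 tested markers 5 had log2 fold changes above 0 and 3 below, with a median of 0.14. The 1 gene under the unadjusted threshold in limma (12.5%, beside 4.85% of named genes) was the outer dynein arm gene Dnah5. Its means were 0.178 and 0.270, and like Kif19a it entered the tests only through the pioglitazone group. Dnah5 is therefore given as a description with no test, and the share of 12.5% rests on it alone. Foxj1, the master regulator of motile cilia, was 0.125 to 0.242 over the 8 mice, and only 1 mouse reached the limit. The summed level of the 9 markers was 12.2 to 26.7 in vehicle mice and 10.5 to 30.2 in pioglitazone mice, most of it from Tppp3, which was 7.55 to 21.3 and 5.49 to 23.8. The part of oviduct cells in the Kif9 and Kif19a values was not tested.

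Kinesin-2 is the heterotrimeric motor of Kif3a, Kif3b or Kif3c, and Kifap3 that carries intraflagellar transport trains to the tip of the cilium, and none of its genes passed. Kif3b had the lowest log2 fold change of all tested kinesin genes, -0.25 (SE 0.15, p = 0.134 in limma, 2-sided exact permutation p = 0.0571). It was 11.7, 9.04, 8.41 and 9.24 in vehicle mice and 8.98, 7.59, 8.21 and 7.39 in pioglitazone mice, lower with pioglitazone in each of the 4 pairs although the groups overlapped. Without vehicle mouse 1 the log2 fold change was -0.15. Its partner Kif3a was 1.23, 2.06, 1.89 and 1.17 with vehicle and 0.751, 1.92, 1.86 and 1.36 with pioglitazone (log2 fold change -0.15). Kif3c was 0.571, 0.751, 0.836 and 0.908 with vehicle and 0.419, 0.975, 1.34 and 0.693 with pioglitazone (log2 fold change 0.05). The adaptor Kifap3 was 2.25, 3.65, 2.92 and 3.19 with vehicle and 2.18, 3.31, 4.82 and 2.57 with pioglitazone (log2 fold change 0.06). Mouse 1 was the lowest of its group for Kif3c and Kifap3 and the highest for Kif3b. The homodimeric kinesin-2 Kif17 was under the limit in every mouse.

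Genes used as luteal cell markers had log2 fold changes below 0 in 6 of 6 tested, with a median of -0.78. They ran from -0.99 (Akr1c18) to -0.05 (Ptgfr). The steroid synthesis genes Star, Cyp11a1 and Hsd3b1 among them are not specific to luteal cells. None passed the unadjusted threshold in limma, and 4 of 6 (66.7%) did with the replicate number as a block, beside 8.02% of named genes. They also varied between the mice of a group. As a median log2 deviation, 6 luteal markers stood at -0.16, 0.96, 0.72 and -0.37 in vehicle mice and -1.71, 0.21, 0.65 and -0.99 in pioglitazone mice, and the 5 kinesin-2 genes at -0.25, 0.27, -0.05 and 0.08, then -0.47, 0.14, 0.42 and -0.23. Vehicle mouse 2 was the highest vehicle mouse in both sets, and pioglitazone mouse 1 was the lowest and mouse 3 the highest pioglitazone mouse, while the lowest vehicle mouse differed. The summed level of the luteal markers was 263 to 378 with vehicle and 133 to 330 with pioglitazone, and their part in the kinesin-2 values was not tested.

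Kinesin-1, the main motor of organelle transport, showed no difference that passed the threshold. The heavy chains Kif5b and Kif5c had log2 fold changes of 0.14 and -0.08, and the cargo-binding light chains Klc1, Klc3 and Klc4 had 0.08, 0.16 and -0.02. Klc1 was uneven among vehicle mice, from 5.66 in vehicle mouse 3 to 16.1 in vehicle mouse 2. The neuronal heavy chain Kif5a was under the limit in every mouse. Of the remaining genes, Kif12 had a log2 fold change of 0.22 and Kif26b of 0.36, and Kif2a, Kif6, Kif26a, Kifc2 and Kifc3 lay between -0.13 and 0.08. Kif12 passed the threshold only without vehicle mouse 3. The ratio of group means exceeded 1.5 in 3 tested genes, Kif1b, Kif19a and Kif21a.

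**Figure D4:**
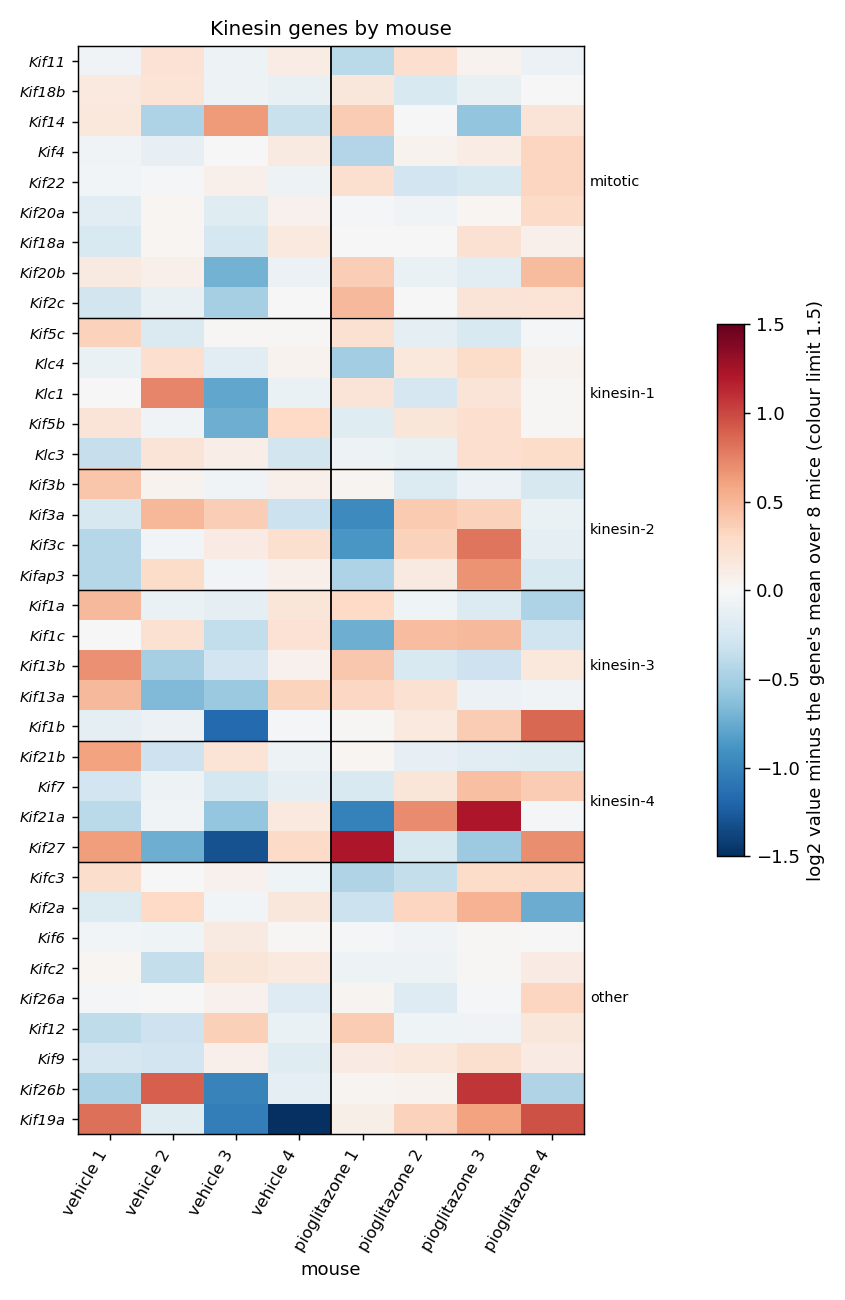
Log2 intensity of the 36 tested kinesin genes (rows, by family) in each of the 8 mice (columns), as the deviation from the gene's mean over all mice, with red above and blue below it and the colours ending at 1.5. Kif1b is lowest in vehicle mouse 3 and highest in pioglitazone mouse 4, and Kif13b and Kif27 are highest in mouse 1 of both groups.

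The mitotic partners of these motors were read from a list of spindle and cell division genes, all 35 of which were tested and 0 of which passed an unadjusted p of 0.05 in limma, beside 4.85% of named genes. Their log2 fold changes were above 0 in 20 and below in 15, with a median of 0.09. The kinetochore gene Spc25 had the smallest p, from 2.56 ± 0.868 to 3.62 ± 0.144 (SD, n = 4 each). Its log2 fold change was 0.58 (SE 0.27, adjusted p = 0.837 in limma, 2-sided exact permutation p = 0.0286), its groups did not overlap, and it passed with the replicate number as a block. It was 1 of 35 genes without overlap and 1 of 35 with the block (2.86% each), beside 4.18% and 8.02% of named genes. The checkpoint kinase gene Bub1 had a log2 fold change of 0.41 (2-sided exact permutation p = 0.143). Kntc1 of the kinetochore had 0.32 (exact permutation p = 0.229). Ect2, a regulator of cytokinesis, had -0.47, given as a description with no test. It entered the tests only through its vehicle mean of 0.257, since its pioglitazone mean of 0.198 was under the limit of sensitivity. Without vehicle mouse 4 Spc25 passed the unadjusted threshold, and without pioglitazone mouse 1 Bub1 and Pbk did. These were 1 and 2 of 35 genes, beside 6.61% and 7.64% of named genes in the same fits. Without pioglitazone mouse 3 the gene counted was Ect2, with the same limit on its reading, beside 3.83% of named genes. The kinetochore motor Cenpe, a kinesin that the symbol rule did not take, had -0.09. Granulosa cell markers were above 0 in 8 of 8 tested, with a median log2 fold change of 0.32. The follistatin gene Fst passed the unadjusted threshold, 1 of 8 (12.5%), beside 4.85% of named genes. Its log2 fold change was 0.66 (adjusted p = 0.837 in limma, 2-sided exact permutation p = 0.114), and its groups overlapped. The summed level of the granulosa markers was 90.6 to 119 with vehicle and 99 to 176 with pioglitazone. The part of granulosa cells in the mitotic values was not tested.

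The partners of transport were dynein and dynactin, cargo adaptors and intraflagellar transport genes, and 0 of 55 tested passed the unadjusted threshold in limma, beside 4.85% of named genes. The median log2 fold change was -0.01, with 24 above 0 and 31 below. In dynein and dynactin, which move cargo towards the minus end, 6 of 20 genes were above 0 and 14 below, with a median of -0.05. Dctn1, the large dynactin subunit, went from 12.2 ± 2.63 to 9.17 ± 1.11 (SD, n = 4 each). Its log2 fold change was -0.40 (SE 0.18, 2-sided exact permutation p = 0.0571), and it passed, lower with pioglitazone, with the replicate number as a block. With the block it was 1 of 55 genes (1.82%), beside 8.02% of named genes. The dynein light chain gene Dynlrb1 had a log2 fold change of -0.35 (exact permutation p = 0.114). Without vehicle mouse 4 both of these genes passed, without pioglitazone mouse 3 Dctn1 did, and without pioglitazone mouse 1 the dynein adaptor Bicd2 did, all lower. These were 2, 1 and 1 of 55 genes, beside 6.61%, 3.83% and 7.64% of named genes in the same fits. The 17 tested cargo adaptors had a median of 0.01, with the smallest p in limma for Apba1, a log2 fold change of 0.25 (exact permutation p = 0.0857), and then Madd, which binds Kif1a and Kif1b motors, with 0.27 (exact permutation p = 0.2). The 18 intraflagellar transport genes had a median of -0.01, and Ift80 had the smallest p in limma, with a log2 fold change of -0.21 (exact permutation p = 0.2).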

How the data were processed

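Ovaries of 4 vehicle and 4 pioglitazone LY mice were compared, with groups and replicate numbers taken from the sample titles. The authors deposited 1 linear intensity per probe and mouse from CodeLink arrays, corrected for background and divided by each slide's median. Deposited medians were 1.007 to 1.014, and 47 to 211 spots per array were missing. Each array was again scaled to its median, a floor of 0.05 was set and log2 was taken. The platform annotation named 22296 probes, of which 21615 had 1 gene. Tests needed 3 or more values in both groups and a group mean that reached 0.2 in either, giving 30634 probes and 16065 genes by their brightest probe. Linear models with moderated variances were fitted in limma 3.58.1 (R 4.3.3), adjusted by Benjamini-Hochberg over all probes tested, and tested on simulated data. Exact permutation tests were 2-sided over the 70 assignments of mice.

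Same-numbered mice deviated together (correlations 0.515, 0.181, 0.274 and 0.232, all over 0.1), so the number was also fitted as a block. The sample titles give only a number and the methods text describes no pairing of mice. The block was thus chosen from these same data, and calls made only with it are descriptions. Among mice of different numbers the correlations ran from -0.528 to 0.369, the highest being vehicle mouse 2 with pioglitazone mouse 3. Members and gene lists were chosen with earlier results of these data known. Described in full are every Kif1b probe, genes with an unadjusted p under 0.05 or without overlap, and in both classes the 4 smallest p and the largest and smallest log2 fold change. The 4 genes with the smallest p in each partner list are given more briefly. Kif27, Kif13b, the kinesin-2 genes, Cenpe and the marker genes were added after their values were seen. Promoters came from RefSeq.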

Additional observations from a re-analysis of the deposited data

Results flagged for a closer look

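Of 82 groups of 4 mice examined for a mouse far from the rest, 2 held one, and chance gives about 1 in 20. Both were the same mouse on the 2 probes of Kif1b. Vehicle mouse 3 was the lowest on the brightest probe, at 1.83 against 3.73 to 4.04 in the other vehicle mice, a gap of 0.86 of the range of the group. The same mouse was the highest on the second probe, at 1.46 against 0.956 to 1.01, a gap of 0.893 of the range. Without this mouse the log2 fold change of the brightest probe was 0.43 in place of 0.70.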

How the results depend on the processing

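Kif1b (its brightest probe or the mean of both), Kif2c, Kif7 and Kif9 were higher with pioglitazone in every alternative run. The second Kif1b probe alone was lower in every run, with log2 fold changes of -0.36 to -0.06. The count of kinesin genes that passed was 2 in place of 4 with the methods' test and with unequal variances (Kif1b and Kif7 were lost), 5.56% beside 6.45% and 5.36% of named genes, and 1 to 3 when single mice were left out. For spindle genes it was 2 of 35 in place of 0 with quantile and with cyclic loess normalization, beside 4.05% and 4.13% of named genes. It was 1 with array weights and 1 (2.86%) with the replicate block, beside 6.14% and 8.02% of named genes. When single mice were left out it was 0 to 2, beside 2.12% to 7.64% of named genes. For transport partners it was 1 in place of 0 with a floor of 0.2 and with at least 0.2 in every array, beside 4.79% and 4.97% of named genes. It was also 1 with the replicate block (1.82%) and with the mean over all probes, beside 8.02% and 4.52%. When single mice were left out it was 0 to 2. The cause was not tested. The median of the mitotic kinesins was 0.14 in place of 0.03 with cyclic loess, and -0.07 to 0.15 when single mice were left out. That of the transport and other kinesins stayed between 0.02 and 0.14. Kif18b was 0.00 with cyclic loess in place of -0.08, and Kif11 was -0.20 to 0.02 in place of -0.10 when single mice were left out and 0.01 with the mean over all probes. Kif7 was also lost with quantile and cyclic loess normalization. Without a filter on dim probes Kif7 was lost and Kif2b, under 0.2 in every mouse, passed as lower. With array weights Kif2c was lost (0.28), and the dim gene Kif19a, at 1.23, was counted in its place. The replicate block changed no call of the kinesin and partner genes other than Kif27 (SE 0.14), Spc25 and Dctn1. Of the marker lists it moved the luteal calls from 0 to 4 of 6 tested (66.7%) and the granulosa and oviduct calls from 1 to 2 of 8 (25% each). Lymphocyte marker calls went from 3 (60%) to 2 (40%) of 5 tested. With the block 8.02% of named genes passed, and 4.85% without it. Intensities near 0.2 limit Kif19a, Kif23, the second Kif27 probe, Ect2 and Dnah5.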
